A study of Mus musculus with 6 samples.

Results

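Transcripts of 10 genes that mark macrophages were followed in endothelial cells (ECs) sorted from the embryonic mouse heart, with and without *Wt1* in the endothelium. The genes were taken by symbol from a list drawn up with earlier results of these data known, and are *Csf1r*, *Cx3cr1*, *Adgre1*, *Mrc1*, *Lilrb4a*, *Cd68*, *Lyz2*, *C1qa*, *C1qb* and *C1qc*. All 10 were found among the 55416 genes of the count table and all 10 passed the filter on low counts, which kept the 16296 genes that reached 10 counts in 2 libraries or more. The lowest count of any of them in any library was 248. The RNA-Seq data comprised 3 libraries of *ControlΔEC* and 3 of *Wt1KOΔEC* cells, all labelled as biological replicates. *ControlΔEC* embryos were Pdgfb(CreERT2/+); Wt1(+/+); R26(mTmG/+) and *Wt1KOΔEC* embryos were Pdgfb(CreERT2/+); Wt1(loxP/loxP); R26(mTmG/+). The labels write the driver as CreERT2 and the study's methods as iCreERT2, and its crosses gave embryos of both genotypes within a litter. Dams received tamoxifen at 75 mg/kg by gavage from E11.5 to E13.5, so that recombination by the *Pdgfb*-driven Cre turned on membrane GFP (mGFP) in both, and mGFP+ cells were collected from digested ventricles at E15.5. Cells were gated on the fluorescent protein, with no step named that removed leukocytes, and the number of embryos behind each library was not given in the sources used here.

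Macrophages settle in the heart during embryonic life and lie close to the developing coronary vessels. They depend on the receptor CSF1R, engulf dying cells and debris, break them down in lysosomes, and secrete the C1q complex that starts the classical complement pathway. These genes are used as markers because endothelial cells express most of them weakly or not at all, although *Mrc1* and *Cd68* are also known from some specialized or activated endothelial cells. In bulk RNA, fewer macrophages and less RNA of these genes per macrophage cannot be told apart.

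Total counts ranged from 26037324 to 44779020 per library, so that 3 counts, taken as the floor of detection, correspond to 0.0608 to 0.119 CPM, the count scaled to library size. *Wt1* averaged 134 ± 21.6 CPM in *ControlΔEC* and 17.9 ± 3.67 CPM in *Wt1KOΔEC* (SD, n = 3 each), with no overlap, in the direction of the labels. The 8 endothelial genes examined, led by *Pecam1*, *Kdr*, *Cldn5* and *Cdh5*, summed to between 4484 and 5572 CPM in *ControlΔEC* and between 4486 and 5189 CPM in *Wt1KOΔEC*. The 18S ribosomal RNA gene took 13.2 to 15.3% of the counts in *ControlΔEC* and 21.1 to 26.5% in *Wt1KOΔEC*, whereas the mitochondrial genes took 5.21 to 6.61% in *ControlΔEC* and 1.68 to 4.57% in *Wt1KOΔEC*. Both shares separated the genotypes, in opposite directions, and their part in the results was not tested beyond a fit without these genes, in which *Lilrb4a* kept a log2 fold change of -2.37. *ControlΔEC* replicate 2 stood apart: it held the highest level of each of the 10 macrophage genes, which 23% of all genes tested did. Results that rest on it are therefore also given without it. Identifiers of the libraries follow each other within a genotype, and no batch is named, so a batch that followed genotype and the genotype itself cannot be told apart.

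The macrophage genes were well above the detection floor in all 6 libraries and lower on average in *Wt1KOΔEC*. Their summed level, after normalization by trimmed mean of M-values (TMM), was 529, 1103 and 406 CPM in *ControlΔEC* replicates 1, 2 and 3 and 375, 368 and 281 CPM in *Wt1KOΔEC* replicates 1, 2 and 3. Each *Wt1KOΔEC* library lay below each *ControlΔEC* library, the nearest pair being 406 and 375 CPM. The order depended on the scale: summed per kilobase of exon, *ControlΔEC* replicate 3 was at 96.3 CPM per kb, below *Wt1KOΔEC* replicates 1 and 2 at 101 and 98.8. The group means were 680 ± 372 and 341 ± 52.3 CPM (SD, n = 3 each), a log2 ratio of -0.99, which was -0.45 without *ControlΔEC* replicate 2. The spread was wide in *ControlΔEC* and narrow in *Wt1KOΔEC*. The 10 genes took 0.0529, 0.122 and 0.0431% of all counts in *ControlΔEC* and 0.0343, 0.0354 and 0.0273% in *Wt1KOΔEC*.

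**Figure D1:**
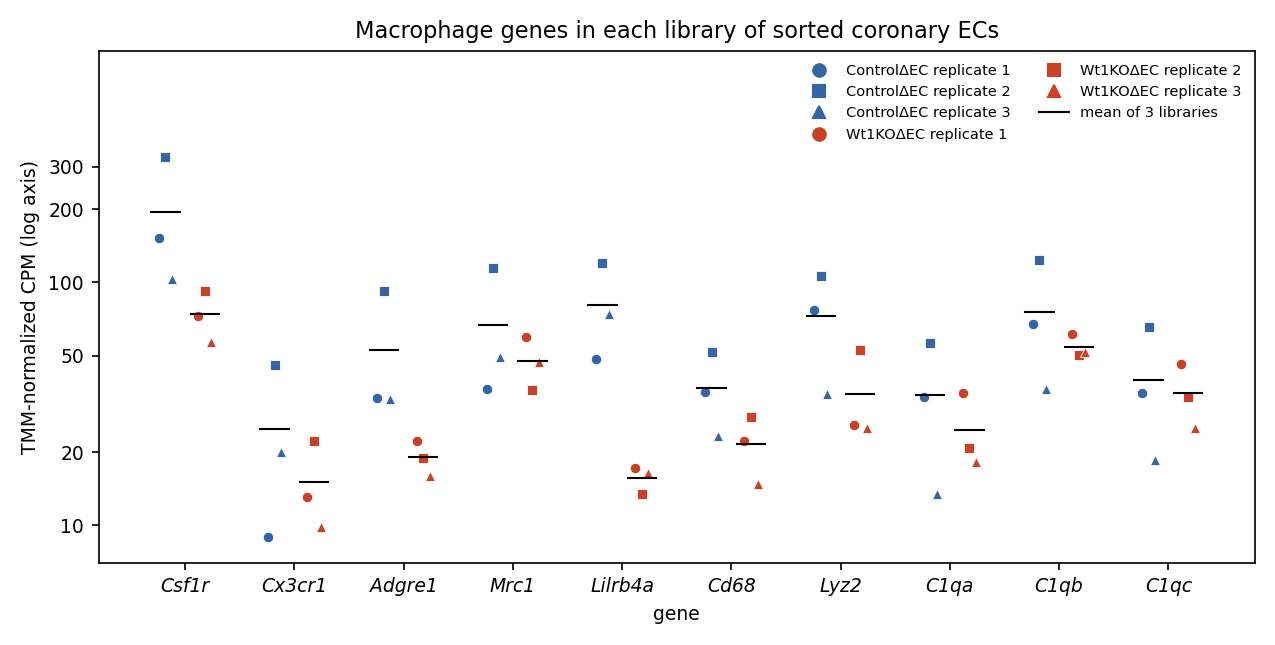
Level of each macrophage gene in TMM-normalized CPM (log axis) in the 3 libraries of *ControlΔEC* (blue) and the 3 of *Wt1KOΔEC* (red), with marker shapes for replicate numbers and a line at each mean. *Csf1r*, *Adgre1* and *Lilrb4a* are lower in every *Wt1KOΔEC* library than in any *ControlΔEC* library, the other genes overlap, and *ControlΔEC* replicate 2 is the highest for all 10.

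Genes were called differentially expressed by edgeR's quasi-likelihood test where the Benjamini-Hochberg adjusted p was below 0.05 and the log2 fold change exceeded 0.58 in size. None of the 10 macrophage genes was called, with adjusted p between 0.0506 and 0.923, while 12 of all genes tested were called (0.0736%), 4 of them lower in *Wt1KOΔEC* (0.0245%). At an unadjusted p under 0.05 with the same fold limit, 5 of the 10 were lower and none was higher, beside 5.96% of all genes tested lower, 4.17% higher and 10.1% in either direction. The 5 were *Csf1r*, *Adgre1*, *Lilrb4a*, *Lyz2* and *Cd68*. DESeq2 with default settings called *Csf1r*, *Adgre1* and *Lilrb4a* lower, 3 of 10, where it called 2.63% of its genes lower and 4.83% in either direction. All 10 fitted log2 fold changes were below 0, as were 52% of all genes tested, and their median was -0.75 beside -0.027 for all genes tested.

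The receptors for growth factor and chemokine signals differed in how far the genotypes were separated. *Csf1r* (ENSMUSG00000024621; chr18:61229714-61266535 on the plus strand of GRCm39) encodes the receptor for CSF1 and IL-34, on which tissue macrophages depend for survival. It measured 153, 327 and 103 CPM in *ControlΔEC* replicates 1 to 3 and 72.5, 92.1 and 57.1 CPM in *Wt1KOΔEC* replicates 1 to 3. The highest *Wt1KOΔEC* library stayed below the lowest *ControlΔEC* library. Its log2 fold change was -1.40 with a standard error (SE) of 0.39, and edgeR's adjusted p was 0.217. DESeq2 gave an adjusted p of 0.0102, and over the alternatives tried the value ran from 0.00674 to 0.520. Exons of *Csf1r* overlap those of *Hmgxb3* on the opposite strand, and 19.4% of the 51-base windows along its transcripts also occur there. *Hmgxb3* itself measured 41.8 ± 3.82 and 40.6 ± 3.67 CPM in *ControlΔEC* and *Wt1KOΔEC*.

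*Cx3cr1*, the receptor for fractalkine and a marker of embryonic and patrolling phagocytes (ENSMUSG00000052336; chr9:119877749-119898945, minus strand, GRCm39), was the least abundant of the 10. It measured 8.96, 45.7 and 20.1 CPM in *ControlΔEC* and 13.1, 22.2 and 9.81 CPM in *Wt1KOΔEC*. The libraries of the genotypes interleaved, since *ControlΔEC* replicate 1 was the lowest of all 6. Its log2 fold change was -0.73 (SE 0.54, edgeR adjusted p 0.65), and 0.054 without *ControlΔEC* replicate 2.

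The ligands of these receptors are made in part by endothelial cells and other stromal cells. *Csf1* measured 24.5, 20.2 and 24.4 CPM in *ControlΔEC* and 30.3, 28.8 and 28.0 CPM in *Wt1KOΔEC*, a log2 fold change of 0.34 (SE 0.20, edgeR adjusted p 0.55). Its *Wt1KOΔEC* libraries all lay above its *ControlΔEC* libraries, opposite to the order for *Csf1r*, and 10.3% of all genes tested had that order. *Il34*, which encodes the other ligand of CSF1R, had no count in 5 libraries and stayed under the floor in the sixth. *Cx3cl1*, encoding fractalkine, measured 77.4, 31.0 and 56.5 CPM in *ControlΔEC* and 28.0, 23.5 and 32.3 CPM in *Wt1KOΔEC*, with a log2 fold change of -0.98 (SE 0.31, edgeR adjusted p 0.258). Of the 11 genes listed as macrophage growth factors and chemokines, 8 could be tested and none was called. At an unadjusted p under 0.05 with the fold limit, 2 were higher and 1 lower, beside 4.17% and 5.96% of all genes tested. The median log2 fold change was 0.49. The lower gene was *Cx3cl1*. *Ccl2* was higher, at 10.6, 8.47 and 13.7 CPM in *ControlΔEC* and 31.8, 19.9 and 20.2 CPM in *Wt1KOΔEC* (edgeR adjusted p 0.209, DESeq2 adjusted p 0.0156). So was *Ccl3*, added after its values were seen (log2 fold change 1.45, edgeR adjusted p 0.247, DESeq2 adjusted p 0.0171).

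Among the surface proteins, *Adgre1* and *Lilrb4a* separated the genotypes and *Mrc1* did not. *Adgre1* encodes F4/80, the classical mouse macrophage antigen (ENSMUSG00000004730; chr17:57665573-57790527, plus strand, GRCm39). It measured 33.5, 92.3 and 33.0 CPM in *ControlΔEC* and 22.2, 18.9 and 16.0 CPM in *Wt1KOΔEC*, with every *Wt1KOΔEC* library below every *ControlΔEC* library. The log2 fold change was -1.48 (SE 0.40, edgeR adjusted p 0.209). DESeq2's adjusted p was 0.0129, within a range of 0.00907 to 0.501 over the alternatives. No 51-base window of *Adgre1* occurred in another gene.

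*Mrc1* encodes the mannose receptor CD206, which takes up glycoproteins and marks tissue-resident macrophages (ENSMUSG00000026712; chr2:14234151-14336926, plus strand, GRCm39). It measured 36.4, 114 and 49.3 CPM in *ControlΔEC* and 59.6, 35.9 and 46.9 CPM in *Wt1KOΔEC*. The values interleaved apart from *ControlΔEC* replicate 2. The log2 fold change was -0.49 (SE 0.39, edgeR adjusted p 0.688) and turned to 0.15 without that library.

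*Lilrb4a* encodes an inhibitory immunoglobulin-like receptor of myeloid cells (ENSMUSG00000112148; chr10:51367027-51372707, plus strand, GRCm39) and had the widest separation of the 10. It measured 48.3, 121 and 74.5 CPM in *ControlΔEC* and 17.2, 13.5 and 16.3 CPM in *Wt1KOΔEC*. The lowest *ControlΔEC* library was above the highest *Wt1KOΔEC* library, and the *Wt1KOΔEC* libraries lay close together. The log2 fold change was -2.37 (SE 0.32) and edgeR's adjusted p was 0.0506, just outside the threshold. It was called without *ControlΔEC* replicate 2 (log2 fold change -1.97, edgeR adjusted p 0.0341) and without *ControlΔEC* replicate 1 (-2.63, edgeR adjusted p 0.0383). DESeq2 gave an adjusted p of 1.46e-09, and the largest over the alternatives was 0.296, without *Wt1KOΔEC* replicate 2.

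*Lilrb4a* has a close copy beside it, and their first 120 coding bases are shown because reads of this length class can fall on either gene. *Lilr4b* (ENSMUSG00000112023; chr10:51356728-51362799, plus strand, GRCm39), now named *Lilrb4b*, matched *Lilrb4a* at 871 of 907 aligned coding bases, or 96%. Bases that differ between the copies are in capitals, 2 in this stretch:
Lilrb4a: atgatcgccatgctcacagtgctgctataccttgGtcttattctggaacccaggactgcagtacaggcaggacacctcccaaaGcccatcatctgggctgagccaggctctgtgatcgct
Lilrb4b: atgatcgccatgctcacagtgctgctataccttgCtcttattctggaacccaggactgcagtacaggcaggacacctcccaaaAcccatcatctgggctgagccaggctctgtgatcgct
A same-strand gene model, *Gm49339*, runs across exons of both, and 91.8% of the 51-base windows along *Lilrb4a* transcripts occurred in another gene, 89.7% in *Gm49339*. The authors' counting program divides such reads between genes by estimation, so the split between these 3 genes is uncertain. *Lilr4b* measured 37.1, 155 and 74.8 CPM in *ControlΔEC* and 17.6, 17.4 and 29.5 CPM in *Wt1KOΔEC*, and its log2 fold change was -2.05 (SE 0.47, edgeR adjusted p 0.165). *Gm49339* had a log2 fold change of -1.36 (SE 0.39, edgeR adjusted p 0.224). Each of the 3 was lower in every *Wt1KOΔEC* library than in any *ControlΔEC* library. *Lilrb4a* and *Lilr4b* summed to 85.4, 275 and 149 CPM in *ControlΔEC* and to 34.8, 30.9 and 45.9 CPM in *Wt1KOΔEC*, with no overlap. Fitted as 1 gene, the pair had a log2 fold change of -2.19 (SE 0.38, edgeR adjusted p 0.108), and with *Gm49339* added -1.96 (SE 0.35, edgeR adjusted p 0.107).

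The genes of the lysosome were lower in *Wt1KOΔEC* on average, with overlap. *Cd68* encodes a heavily glycosylated lysosomal membrane protein (ENSMUSG00000018774; chr11:69555037-69557067, minus strand, GRCm39). It measured 35.3, 51.5 and 23.3 CPM in *ControlΔEC* and 22.2, 27.9 and 14.8 CPM in *Wt1KOΔEC*, where *Wt1KOΔEC* replicate 2 exceeded *ControlΔEC* replicate 3. The log2 ratio from the fit was -0.76 (SE 0.34, edgeR adjusted p 0.378). *Lyz2* encodes the lysozyme of phagocytes, which cuts bacterial cell walls (ENSMUSG00000069516; chr10:117111557-117118346, minus strand, GRCm39). It measured 77.3, 106 and 34.7 CPM in *ControlΔEC* and 25.8, 52.8 and 25.1 CPM in *Wt1KOΔEC*, and again *Wt1KOΔEC* replicate 2 exceeded *ControlΔEC* replicate 3. For *Lyz2* the log2 fold change was -1.07 (SE 0.42, edgeR adjusted p 0.33). Without *ControlΔEC* replicate 2 the values were -0.44 for *Cd68* and -0.70 for *Lyz2*. Of 12 lysosomal genes that most cells use, led by *Ctsb*, *Lamp1*, *Ctsd* and *Ctsl*, all 12 were tested and none was called, with a median log2 fold change of -0.13.

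*Lyz2* also has a neighbouring copy, *Lyz1*, the lysozyme of the Paneth cells of the gut, but the pair is less alike, with 82.2% of aligned coding bases the same. The first 120 coding bases are shown for contrast with the *Lilrb4* pair, with the 11 differing bases in capitals:
Lyz2: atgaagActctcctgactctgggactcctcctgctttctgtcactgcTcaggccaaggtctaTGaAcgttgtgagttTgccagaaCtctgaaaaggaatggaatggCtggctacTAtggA
Lyz1: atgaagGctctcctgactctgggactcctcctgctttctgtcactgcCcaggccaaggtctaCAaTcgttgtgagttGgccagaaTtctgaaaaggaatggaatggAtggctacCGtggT
*Lyz1* had no count in 4 of the 6 libraries and 1 and 17 counts in the others, so that what was measured under lysozyme came almost wholly under *Lyz2*. Of the *Lyz2* windows of 51 bases, 12.2% occurred in the antisense gene model *Gm67237*.

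The chains of C1q, which assemble into the secreted recognition unit of the classical complement pathway, did not separate the genotypes. Their genes lie side by side on the minus strand of chromosome 4 (GRCm39), *C1qb* (ENSMUSG00000036905) at chr4:136606009-136613511, *C1qc* (ENSMUSG00000036896) at chr4:136616466-136620376 and *C1qa* (ENSMUSG00000036887) at chr4:136623223-136626161. *C1qa* measured 33.8, 56.3 and 13.4 CPM in *ControlΔEC* and 34.9, 20.8 and 18.2 CPM in *Wt1KOΔEC*. *C1qb* measured 67.4, 124 and 36.3 CPM in *ControlΔEC* and 61.1, 50.2 and 51.6 CPM in *Wt1KOΔEC*. *C1qc* measured 35.0, 65.7 and 18.5 CPM in *ControlΔEC* and 46.2, 33.8 and 25.1 CPM in *Wt1KOΔEC*. For all 3 genes, *ControlΔEC* replicate 2 was the highest library and *ControlΔEC* replicate 3 the lowest, so that *ControlΔEC* alone spanned the whole range. The log2 fold changes were -0.48 (SE 0.47) for *C1qa*, -0.48 (SE 0.37) for *C1qb* and -0.18 (SE 0.42) for *C1qc*, with edgeR adjusted p of 0.755, 0.666 and 0.923. Without *ControlΔEC* replicate 2 they were 0.063, 0.067 and 0.39. The proportions of the chains were compared by ratios of CPM. *C1qb* over *C1qa* was 2.00, 2.20 and 2.71 in *ControlΔEC* and 1.75, 2.41 and 2.83 in *Wt1KOΔEC*, with overlap. *C1qb* over *C1qc* was 1.92, 1.88 and 1.96 in *ControlΔEC* and 1.32, 1.49 and 2.06 in *Wt1KOΔEC*, where replicates 1 and 2 lay below all *ControlΔEC* libraries. *C1qc* over *C1qa* was 1.04, 1.17 and 1.38 in *ControlΔEC* and 1.32, 1.62 and 1.38 in *Wt1KOΔEC*, with overlap.

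Promoter sequence is shown for the C1q genes and others of the set because the transcription factor PU.1, encoded by *Spi1*, drives many macrophage genes through GGAA cores. RefSeq promoters (GRCm38.p6, the 250 bases before the start site) were at hand for 6 of the 10 genes. They were searched on both strands for GAGGAA and for the longer GAGGAAGT, which contains it. GAGGAA occurred in 4 of the 6, *C1qb*, *C1qc*, *Cd68* and *Mrc1*, beside 23.3% of all 32851 promoters of that length, and GAGGAAGT in *C1qc* alone, beside 2.44%. *Cx3cr1* and *Lyz2* held neither, but their windows were not all upstream sequence. That of *Cx3cr1* began within an annotated transcript of the gene, and that of *Lyz2* reached one after 81 bases. The stretches below are cut where a known transcript begins, and each match to the 6-base motif on either strand is in capitals. They lie at chr4:136886201-136886450 for *C1qb*, chr4:136893066-136893164 for *C1qc* and chr11:69666242-69666420 for *Cd68*, all on the minus strand, and at chr2:14229164-14229339 on the plus strand for *Mrc1*.
C1qb: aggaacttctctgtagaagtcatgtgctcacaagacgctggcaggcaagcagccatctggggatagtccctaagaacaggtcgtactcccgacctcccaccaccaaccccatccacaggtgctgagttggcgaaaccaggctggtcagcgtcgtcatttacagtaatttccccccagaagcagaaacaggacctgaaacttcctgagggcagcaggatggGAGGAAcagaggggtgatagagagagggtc
C1qc: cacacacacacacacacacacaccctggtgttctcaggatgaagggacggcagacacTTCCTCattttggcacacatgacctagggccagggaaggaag
Cd68: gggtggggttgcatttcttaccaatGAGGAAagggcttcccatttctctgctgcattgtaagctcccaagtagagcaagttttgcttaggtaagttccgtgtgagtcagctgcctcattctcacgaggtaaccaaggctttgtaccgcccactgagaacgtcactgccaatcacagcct
Mrc1: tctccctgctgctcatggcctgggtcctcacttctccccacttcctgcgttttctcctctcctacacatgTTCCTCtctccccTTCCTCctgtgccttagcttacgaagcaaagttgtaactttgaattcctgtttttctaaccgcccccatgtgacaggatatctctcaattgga
*Mrc1* had 3 matches, of which 2 fall in the part printed. These are matches of letters, and no binding was measured. *Spi1* itself measured 16.3, 31.7 and 10.3 CPM in *ControlΔEC* and 11.9, 10.5 and 8.90 CPM in *Wt1KOΔEC*, with a log2 fold change of -0.90 (SE 0.40, edgeR adjusted p 0.387).

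Leaving out *ControlΔEC* replicate 2 divided the 10 genes. That library exceeded the next highest *ControlΔEC* library by between 1.37-fold, for *Lyz2*, and 2.75-fold, for *Adgre1*, with a median of 1.86-fold. Without it, 5 of the 10 log2 fold changes were below 0 and their median was -0.19. *C1qa*, *C1qb*, *C1qc*, *Mrc1* and *Cx3cr1* turned to slightly positive values. *Csf1r* (-0.79, SE 0.24), *Adgre1* (-0.80, SE 0.23) and *Lilrb4a* (-1.97, SE 0.25) kept an unadjusted p under 0.05 and the fold limit, 3 of 10 beside 5.49% of the genes tested in those 5 libraries. Their edgeR adjusted p were 0.239, 0.217 and 0.0341. The same 3 genes were lower in every *Wt1KOΔEC* library than in any *ControlΔEC* library, with all 6 libraries (3 of 10 beside 8.97% of genes tested) and without *ControlΔEC* replicate 2 (3 of 10 beside 15.7%).

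**Figure D2:**
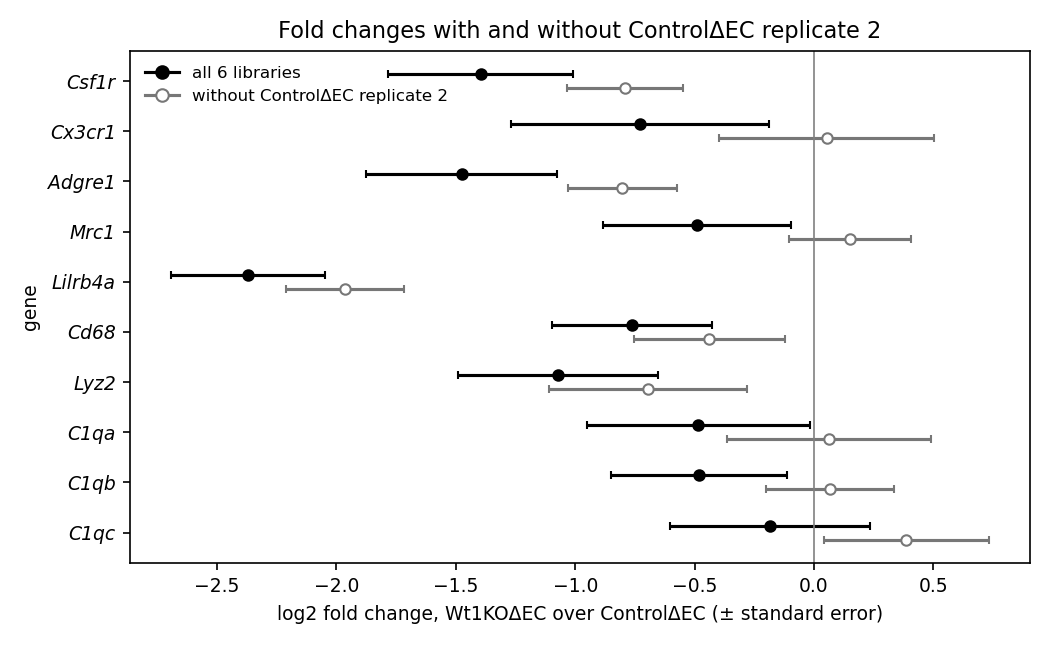
Log2 fold change of *Wt1KOΔEC* over *ControlΔEC* for each macrophage gene, from edgeR's fit, with bars of 1 standard error, for all 6 libraries (filled) and without *ControlΔEC* replicate 2 (open). *Csf1r*, *Adgre1* and *Lilrb4a* stay well below 0 in both fits, from -0.79 to -2.37, whereas the C1q genes, *Mrc1* and *Cx3cr1* move to between 0.054 and 0.39.

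The make-up of the macrophage signal was compared within each library, where a change in the total cancels. Of the summed CPM of the 10 genes, *Csf1r* made up 28.0 ± 2.27% in *ControlΔEC* and 21.6 ± 3.04% in *Wt1KOΔEC* (SD, n = 3 each), *Adgre1* 7.60 ± 1.11% and 5.58 ± 0.404%, and *Lilrb4a* 12.8 ± 4.88% and 4.69 ± 1.08%. All 3 shares were lower without overlap. *C1qb* made up 11.0 ± 1.92% and 16.1 ± 2.37%, and *C1qc* 5.71 ± 1.06% and 10.1 ± 1.89%, both higher in *Wt1KOΔEC* without overlap. Shares of 1 total are bound to each other. The shares of *C1qa*, *Mrc1*, *Lyz2*, *Cd68* and *Cx3cr1* overlapped.

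Ratios between genes do not have that constraint, and 10 were computed, chosen after the values were seen. Many of them share a gene or the C1q sum with others, so they are not independent observations. *Csf1r* over the summed C1q genes was 1.12, 1.33 and 1.51 in *ControlΔEC* and 0.510, 0.879 and 0.601 in *Wt1KOΔEC*. *Adgre1* over C1q was 0.246, 0.376 and 0.483 in *ControlΔEC* and 0.156, 0.18 and 0.168 in *Wt1KOΔEC*. *Lilrb4a* over C1q was 0.354, 0.491 and 1.09 in *ControlΔEC* and 0.121, 0.129 and 0.172 in *Wt1KOΔEC*. In each of these ratios *ControlΔEC* replicate 2 lay between the other *ControlΔEC* libraries, and no *Wt1KOΔEC* library reached a *ControlΔEC* library. *Mrc1* over C1q was 0.267, 0.466 and 0.723 in *ControlΔEC* and 0.419, 0.342 and 0.494 in *Wt1KOΔEC*, with overlap. Against *Spi1*, *Csf1r* was 9.37, 10.3 and 10.0 in *ControlΔEC* and 6.09, 8.75 and 6.41 in *Wt1KOΔEC*, while the summed C1q genes were 8.34, 7.75 and 6.62 in *ControlΔEC* and 12.0, 9.96 and 10.7 in *Wt1KOΔEC*, higher without overlap. The exact two-sided permutation test gave p = 0.1 for each of the 7 ratios without overlap, the smallest that 3 against 3 libraries allow (0.143 adjusted over the 10 ratios), so that none could pass 0.05. The ratio of *Mrc1* to C1q gave an exact p of 0.9 (0.9 adjusted), of *Mrc1* to *Spi1* 0.4 (0.444 adjusted) and of *Csf1r* to *Mrc1* 0.2 (0.25 adjusted).

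**Figure D3:**
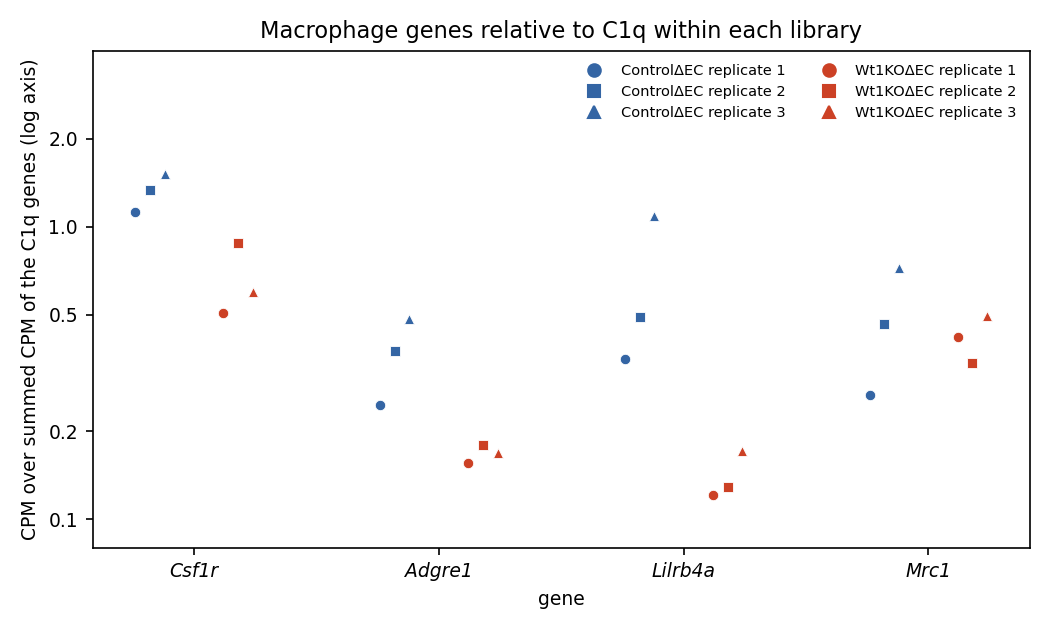
CPM of *Csf1r*, *Adgre1*, *Lilrb4a* and *Mrc1* divided by the summed CPM of *C1qa*, *C1qb* and *C1qc* in the same library (log axis), for the 3 libraries of *ControlΔEC* (blue) and of *Wt1KOΔEC* (red). The first 3 genes are lower relative to C1q in every *Wt1KOΔEC* library, for *Csf1r* at most 0.879 against at least 1.12, and *Mrc1* overlaps.

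Levels of different genes were compared per kilobase of exon. In *ControlΔEC*, *Cd68* was the highest at 26.8 ± 10.3 CPM per kb (SD, n = 3), followed by *Csf1r*, *Lyz2*, *C1qa*, *Lilrb4a*, *Adgre1*, *C1qc*, *C1qb*, *Mrc1* at 8.52 ± 5.35 and *Cx3cr1* at 5.35 ± 4.05. No neighbours in that order differed by more than their spread. In *Wt1KOΔEC*, *Cd68* at 15.8 ± 4.79 and *C1qa* at 15.3 ± 5.58 CPM per kb were the highest, and *Lilrb4a*, at 2.99 ± 0.370, was the lowest, next to *Cx3cr1* at 3.23 ± 1.37. The only neighbours without overlap in *Wt1KOΔEC* were *C1qb*, whose lowest library was at 8.04, and *Mrc1*, whose highest was at 7.61. Ranked by their mean level per kb among 54749 genes, the 10 lay between places 1344, for *Cd68*, and 5338, for *Cx3cr1*. Their sum per kb amounted to 10.5, 30.8 and 9.12% of that of the 8 endothelial genes in *ControlΔEC* and to 8.93, 9.30 and 7.30% in *Wt1KOΔEC*, so that *Wt1KOΔEC* replicate 2 exceeded *ControlΔEC* replicate 3 on this scale.

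Other macrophage and leukocyte genes were also highest, as lists, in *ControlΔEC* replicate 2. Of 24 further macrophage genes, 22 could be tested and none was called. Their median log2 fold change was -0.88, and 20 were below 0, beside 52% of all genes tested. At an unadjusted p under 0.05 with the fold limit, 7 were lower and 1 was higher, beside 5.96% and 4.17% of all genes tested. The list summed to between 362 and 729 CPM in *ControlΔEC* and between 237 and 396 CPM in *Wt1KOΔEC*, with overlap. Without *ControlΔEC* replicate 2 its median was -0.51 with 2 lower and 1 higher, beside 5.49% of genes tested lower. Its most abundant genes were *Lgmn*, a lysosomal protease (-0.43, SE 0.32), *Cd14*, a co-receptor for lipopolysaccharide (-0.34, SE 0.40), *Sirpa*, an inhibitory receptor for CD47 (-0.37, SE 0.28), and *Ctss*, cathepsin S (-0.81, SE 0.31). *Timd4* and *Marco* were at 0 in all *ControlΔEC* libraries and *Vsig4* was at 0 in all *Wt1KOΔEC* libraries. *Timd4*, the gene counted as higher, had 53, 1 and 33 counts in *Wt1KOΔEC* (edgeR adjusted p 0.258, DESeq2 adjusted p 0.0261). DESeq2 called 1 gene of this list higher and 2 lower. Of 15 genes listed as leukocyte genes, not all of which every leukocyte expresses, 14 were below 0, beside 52% of all genes tested. Their median was -0.92. None was called, and 5 were lower at an unadjusted p under 0.05 with the fold limit, beside 5.96%. *Lcp1*, *Plek* and *Laptm5*, the most abundant of these, were lower in every *Wt1KOΔEC* library than in any *ControlΔEC* library, and *Hcls1* overlapped. Of the 15, 5 were lower without overlap, beside 8.97% of all genes tested. *Ptprc*, which encodes CD45 and was added after its values were seen, measured 16.7, 23.6 and 9.05 CPM in *ControlΔEC* and 10.6, 7.75 and 4.87 CPM in *Wt1KOΔEC*. Without *ControlΔEC* replicate 2 the leukocyte list had a median of -0.33. None was then at an unadjusted p under 0.05 with the fold limit, beside 5.49% of genes tested lower.

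The 10 myeloid transcription factors had a median log2 fold change of -0.37, which was 0.20 without *ControlΔEC* replicate 2, and none was called. *Irf8* measured 42.8, 50.6 and 30.6 CPM in *ControlΔEC* and 52.7, 54.9 and 63.5 CPM in *Wt1KOΔEC*, above every *ControlΔEC* library. *Irf5* measured 12.2, 34.5 and 14.8 CPM in *ControlΔEC* and 11.6, 4.24 and 4.31 CPM in *Wt1KOΔEC*, below every *ControlΔEC* library. Among 14 genes of complement beyond C1q, 13 were tested and none was called. The receptors for the fragments C5a and C3a were both lower without overlap, as were 8.97% of all genes tested. *C5ar1* measured 26.1, 62.1 and 29.0 CPM in *ControlΔEC* and 16.4, 7.78 and 10.1 CPM in *Wt1KOΔEC* (log2 fold change -1.77, SE 0.41, edgeR adjusted p 0.165). *C3ar1* measured 42.7, 70.2 and 43.6 CPM in *ControlΔEC* and 35.3, 28.5 and 19.0 CPM in *Wt1KOΔEC* (-0.92, SE 0.29, edgeR adjusted p 0.251).

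Markers of other blood cells ranged from 0 to far above the macrophage genes. Of 6 monocyte genes, 4 could be tested and none was called by edgeR. All 4 had a log2 fold change below 0, beside 52% of all genes tested. Their median was -2.01, or -2.14 without *ControlΔEC* replicate 2. *Nr4a1*, a nuclear receptor that many cell types induce, made up most of their level, at 401 ± 79.3 CPM in *ControlΔEC* and 316 ± 7.87 CPM in *Wt1KOΔEC*. The genes *Ccr2* and *Chil3* were at 0 in 5 and in 6 libraries, and *Ly6c2* was at 3.57 ± 1.05 CPM in *ControlΔEC* and 0.485 ± 0.252 CPM in *Wt1KOΔEC* (edgeR adjusted p 0.235, DESeq2 adjusted p 0.00362). The 8 lymphoid genes summed to at most 4.44 CPM in *ControlΔEC* and 1.87 CPM in *Wt1KOΔEC*. The 11 neutrophil and mast cell genes summed to between 6.89 and 15.9 CPM in *ControlΔEC* and between 1.46 and 41.1 CPM in *Wt1KOΔEC*, led by the mast cell proteases *Cpa3* and *Cma1*. Erythroid transcripts were far more abundant, summing to between 6579 and 14382 CPM in *ControlΔEC* and between 5145 and 8551 CPM in *Wt1KOΔEC*. Their sum was also highest in *ControlΔEC* replicate 2. Of the 10 erythroid genes, 6 had a log2 fold change below 0 and 4 above 0. The globin genes *Hbb-y* and *Hba-x*, added after their values were seen, were higher in *Wt1KOΔEC* without overlap, as were 10.3% of all genes tested. *Hbb-y* averaged 26.2 ± 18.1 CPM in *ControlΔEC* and 156 ± 46.7 CPM in *Wt1KOΔEC* (edgeR adjusted p 0.128). *Hba-x* averaged 10.9 ± 8.13 and 47.4 ± 20.8 CPM (edgeR adjusted p 0.22). The 6 megakaryocyte genes had a median log2 fold change of -0.035, and the 8 endothelial genes a median of -0.073 with their lowest sum in *ControlΔEC* replicate 2. Their part in the macrophage values was not tested.

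Among markers of other cardiac cells, the mural, fibroblast and epicardial lists differed between the genotypes, and the cardiomyocyte and lymphatic endothelial lists overlapped in sum. The 6 mural cell genes, which mark pericytes and smooth muscle, summed to 363, 175 and 361 CPM in *ControlΔEC* and 139, 152 and 145 CPM in *Wt1KOΔEC*, lower without overlap, and *ControlΔEC* replicate 2 was the lowest *ControlΔEC* library there. Of the 5 mural genes tested, 3 were lower at an unadjusted p under 0.05 with the fold limit, beside 5.96% of all genes tested. DESeq2 also called 3 lower, beside 2.63% of its genes. The median log2 fold change was -1.22, or -1.42 without *ControlΔEC* replicate 2. *Rgs5*, a pericyte gene, measured 165, 26.8 and 164 CPM in *ControlΔEC* and 25.4, 17.9 and 19.4 CPM in *Wt1KOΔEC* (edgeR adjusted p 0.163). *Pdgfrb*, the pericyte receptor for PDGF-B, measured 64.0, 39.6 and 66.8 CPM in *ControlΔEC* and 15.1, 24.7 and 32.1 CPM in *Wt1KOΔEC* (edgeR adjusted p 0.196). The 6 fibroblast genes were higher, with a median of 0.93, or 0.74 without *ControlΔEC* replicate 2, and sums of 585 to 866 CPM in *ControlΔEC* and 1155 to 1364 CPM in *Wt1KOΔEC*. The 6 epicardial genes, with a median of 1.17, or 1.46 without that library, summed to only 9.83 to 17.8 CPM in *ControlΔEC* and 18.8 to 49.0 CPM in *Wt1KOΔEC*. The 6 cardiomyocyte genes summed to 173 to 228 CPM in *ControlΔEC* and 141 to 306 CPM in *Wt1KOΔEC*. The 8 lymphatic and sinusoidal endothelial genes summed to 653 to 845 CPM and 779 to 975 CPM. Their median was 0.72, or 0.54 without *ControlΔEC* replicate 2. At an unadjusted p under 0.05 with the fold limit, 2 of these 8 were higher, beside 4.17% of all genes tested. The paper, on the same sorted cells, counts *Rgs5* and *Kcnj8* of the mural list as arterial markers. It counts *Col1a1*, *Col3a1* and *Dcn* of the fibroblast list as venous markers, and *Col1a1* also as a fibroblast gene. Whether these transcripts came from endothelial or from other cells was not tested. The part of such other cells in the macrophage values was not tested either. Of the 167 genes of all other lists, edgeR called *Col1a1* alone, a fibroblast collagen, at 114 ± 12.5 CPM in *ControlΔEC* and 290 ± 40.0 CPM in *Wt1KOΔEC*.

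**Figure D4:**
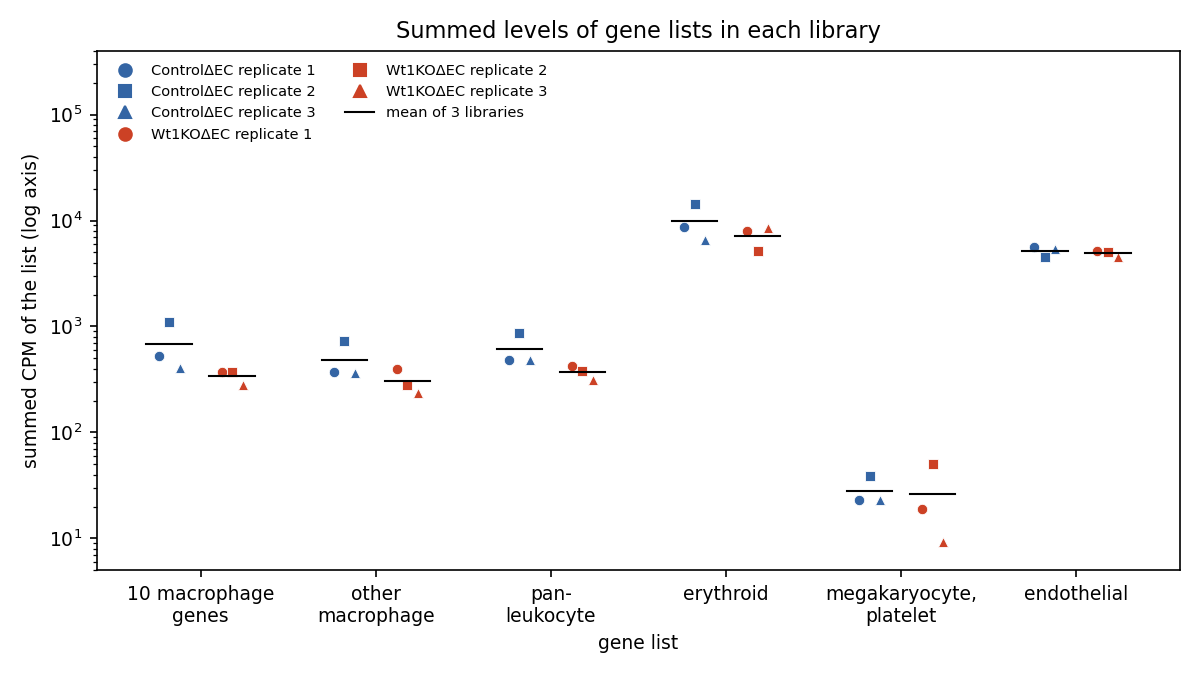
Summed CPM (log axis) of the 10 macrophage genes and of 5 other gene lists in the 3 libraries of *ControlΔEC* (blue) and of *Wt1KOΔEC* (red), with a line at each mean. *ControlΔEC* replicate 2 is the highest *ControlΔEC* library for the macrophage, leukocyte, erythroid and megakaryocyte lists, and the lowest of them for the endothelial list, at 4484 CPM.

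The genes whose log2 CPM followed the summed macrophage level most closely over the 6 libraries were ranked among 12946 genes with a mean of at least 1 CPM. Outside the set they were *Tmem44* (Pearson's r 0.993), *Arfgap1* (0.992), *Gm49339* (0.989), *Ube3b* (0.988) and *Pkmyt1* (0.984), and *Gm49339* shares reads with *Lilrb4a*. The 6 points share their libraries and the high *ControlΔEC* replicate 2, and 1.82% of the ranked genes reached an r above 0.9. Of the 15 leukocyte genes, 8 did, as did 1 of 21 other macrophage genes ranked. The median r was 0.93 for the leukocyte genes and -0.28 for the endothelial genes. No r is given for the 10 genes themselves, since each is part of the sum.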

How the data were processed

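SMART-seq2 libraries of mGFP-sorted cells, 3 of each genotype, were analysed. The deposited table holds expected counts per gene, which the authors made with STAR 2.7.8a and RSEM 1.3.0 and gave as whole numbers without normalization. The study's methods give GRCm39 with GENCODE annotation and the submitters' processing notes name GRCm38, so coordinates of genes are given from a GRCm39 annotation and only promoters from GRCm38.p6. The notes name DESeq2 1.18 for the authors' own comparison.

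The analysis ran in R 4.3.3, with the quasi-likelihood F test of edgeR 4.0.16 after TMM normalization and adjustment over all genes that reached 10 counts in 2 libraries or more. SEs are the absolute log2 fold change divided by the root of F. DESeq2 1.42.0 and limma-voom (limma 3.58.1) were alternatives, beside other normalizations and filters and fits without each library. The scripts were tested on simulated data. CPM per kb used exonic length. Likeness used log2 CPM with a prior count of 2. The 51-base windows match the read length.

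The members and gene lists were chosen with earlier results of these data known. Genes named are the 10 members, *Wt1*, *Csf1*, *Il34* and *Cx3cl1*, the 4 most abundant genes of each other list or fewer, genes called, genes sharing reads with members, and the 5 genes most alike. Others are said to be added, or are given because they were at 0. The p-values measure the spread between the libraries. The SDs and SEs also take in that spread, whereas the detection floors cover counting error only. Libraries of a group differed by more than sampling noise, with a chi-square over its degrees of freedom of 57.1 to 147 for pairs of libraries.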

Additional observations from a re-analysis of the deposited data

How the results depend on the processing

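With 3 libraries per genotype, edgeR's count of genes called was sensitive: 12 became 767 with DESeq2, 296 with no filter, 113 with at least 10 counts in every library and 1652 at an unadjusted p, and leaving out 1 library gave 2 to 37. Other normalizations, limma-voom, filterByExpr, no fold limit and removal of 18S and mitochondrial genes gave 8 to 13. None of the 10 macrophage genes was called, against 3 with DESeq2, 3 with no filter, 1 with filterByExpr, 1 with at least 10 counts in every library and 5 at an unadjusted p, and 0 to 1 with 1 library left out (*Lilrb4a*, without *ControlΔEC* replicate 1 or 2). Calls in the other lists went from 1 to 20 with DESeq2. The cause was not tested. With 1 library left out, log2 fold changes ran from -0.87 to 0.063 for *C1qa*, -0.81 to 0.067 for *C1qb*, -0.52 to 0.39 for *C1qc*, -0.79 to 0.15 for *Mrc1* and -1.13 to 0.054 for *Cx3cr1*, each positive without *ControlΔEC* replicate 2, and *C1qc* also without *Wt1KOΔEC* replicate 3 (0.0071). The log2 ratio of summed CPM ran from -1.26 to -0.45 with 1 library left out, was -1.17 with library size only, -1.22 without the C1q genes, -0.85 without *Lyz2* and *Lilrb4a* and -0.89 per kb, where the libraries of the genotypes overlapped.

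The deviations of libraries with the same replicate number correlated at 0.0566, 0.0045 and 0.0201. Those of libraries with different numbers correlated at values from -0.0429 to 0.0250. Whether libraries with the same number shared a litter or their processing was not tested. With the number as a block in edgeR's fit, 5 genes and 0 macrophage genes were called, and *Lilrb4a* was at -2.27 with an adjusted p of 0.114.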
